A study of Homo sapiens with 18 samples.

Results

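The cytosolic ribosomal protein genes encode the protein part of the ribosome that translates nuclear mRNAs: RPL genes for the large subunit, RPS genes for the small subunit. They were chosen by symbol, as RPL or RPS followed by a number and at most a closing A, X or L, with RPLP0, RPLP1, RPLP2 and RPSA added. This left pseudogenes out and gave 79 of the 16472 genes in the deposited table, 47 of the large and 32 of the small subunit. RPL10L and RPL3L also carry such symbols but have no row in the table. The rule used names only and no measured value.

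The cells were NIKS, an established human keratinocyte line described as normal and immortalized, grown on irradiated J2/3T3 mouse fibroblasts. Groups were Sp100 wild type (WT) or Sp100 knockout (KO), each untreated (0 h) or kept for 12 or 48 h in 25 ng/mL human interferon alpha 2a, with 3 biological replicates in each of the 6 groups. SP100 is a protein of PML nuclear bodies and is itself an interferon-induced gene. Column names place all WT libraries in 1 vector line and all KO libraries in 1 knockout line, so genotype and line cannot be told apart. Every untreated library was taken at 0 h, so interferon and time in culture cannot be told apart either.

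The 18 libraries were stranded mRNA libraries, reported as RPKM (reads scaled to gene length and library total). SP100 itself stood at 30.1, 31.9 and 27.9 RPKM in untreated WT and at 16.0, 14.2 and 15.2 in untreated KO. At 12 h it was at 156, 172 and 151 RPKM in WT against 93.2, 86.5 and 87.5 in KO, and at 48 h at 127, 124 and 131 against 59.5, 57.4 and 62.4. The KO libraries were thus below the WT libraries at each time, but the knockout line kept reads on the gene. The 12 keratinocyte markers summed to 21614 to 22657 RPKM in untreated WT and 24413 to 25355 at 12 h. In KO the sums were 20770 to 21624 and 22780 to 25593. Single markers went opposite ways. KRT6A went from 3872, 4151 and 4025 RPKM to 6681, 6645 and 6930 in WT. Its KO values were 3759, 3801 and 3957, then 6297, 6891 and 6808. KRT5 went from 7777, 7838 and 7933 to 7029, 6838 and 7080 in WT. The KRT5 values in KO were 7856, 7505 and 7591, then 6494, 7256 and 6984. The 3 fibroblast markers of 10 present in the table summed to 5.8 to 8.9 RPKM over all libraries. Of 7 leukocyte markers CD68, CD14 and ITGAM are in the table, and their sum went from 24.2 to 25.5 RPKM in untreated WT to 54.1 to 59.2 at 12 h and from 19.7 to 21.2 to 45.2 to 51.8 in KO. Most of that sum was CD68, a lysosomal protein, while CD14 went the other way. It was at 5.77, 4.14 and 5.37 RPKM in untreated WT and at 2.56, 2.11 and 2.52 at 12 h. In KO the CD14 values were 4.33, 4.65 and 6.64 before and 1.65, 1.39 and 1.25 at 12 h. The part of these marker shifts in the results below was not tested. The 25 genes of an interferon reference list took 0.03 to 0.04% of all RPKM in untreated libraries and 1.22 to 1.53% in treated ones. Total read numbers are not given in the sources used here. Steps in the low RPKM values placed the relative depth of the libraries between 0.845 and 1.259 of their mean, although only 73.7% of the values used lay within 3% of a whole read.

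Ribosomal protein mRNAs are among the most abundant in a growing cell, and their products are needed in equal numbers. In vertebrates most of them are TOP mRNAs: they begin with a C followed by a run of pyrimidines (C or T). This 5′ terminal oligopyrimidine tract lets mTORC1, through LARP1 and related proteins, set translation and stability of the whole class together. Unassembled RPL5 and RPL11 can bind MDM2, the ubiquitin ligase that keeps p53 low, which links ribosome assembly to p53.

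The start sites of 9 members are shown because their values carry the results below; each window runs from 20 bases before to 10 bases after the RefSeq transcript start (GRCh38.p14), so it crosses from promoter into the 5′ end of exon 1. Capitals mark a run of at least 6 pyrimidines read forward from a C within 3 bases of the start, on the strand of the gene. The base before that C was not considered. In RPL13A and RPSA it is also a pyrimidine, so the full stretch opens earlier there, and the counts below include such windows. RPL13A lies on the plus strand at chr19:49487588-49487617, RPLP0 on the minus strand at chr12:120201102-120201131, RPL12 on the minus strand at chr9:127451397-127451426 and RPS3A on the plus strand at chr4:151099608-151099637. RPS6 lies on the minus strand at chr9:19380227-19380256 and RPSA on the plus strand at chr3:39406700-39406729. RPL3 (minus strand, chr22:39319614-39319643), RPL17 (minus strand, chr18:49492456-49492485) and RPS26 (plus strand, chr12:56041898-56041927) have no such run in the window.
RPL13A: ccctgcgacaaaacctcCTCCTTTTCCaag
RPLP0: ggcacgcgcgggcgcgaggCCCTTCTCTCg
RPL12: cttgtccgcgcgatttccggCCTCTCggct
RPS3A: tcgcgcgactcccacttccgCCCTTTTggc
RPS6: gcgctaagcggaagttggCCCTCTTTTCCg
RPSA: cgtcatttcctgccgcctgtCTTTTCCgtg
RPL3: gacccgtaaggccgaccggcctctaccggc
RPL17: ctcttcctctttccctaagcagcctgaggt
RPS26: gctgggagacacataacctcgattttcttc
Of the 63 members with a RefSeq window, 44 (69.8%) held the run, against 903 of 9590 other tested genes (9.4%) whose windows had the same length. A window without the run says only that these letters are not there, since the annotated start can differ from the start used in these cells.

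Together the 79 genes were a large part of the measured transcriptome. They took 20.1, 19.6 and 19.7% of all RPKM in untreated WT (19.8% ± 0.242, SD, n = 3) and 20.3, 19.8 and 19.97% in untreated KO (20.02% ± 0.269, SD, n = 3). A total of 54 of them ranked among the 100 highest genes. Their mean levels over all libraries ran from 25.5 to 3664 RPKM with a median of 1458, against a median of 12.0 RPKM over the 13280 genes that passed the filter on low values (3 or more libraries with an RPKM of 1 or above). All 79 members passed that filter.

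Levels differed between members by far more than any group difference. On the RPKM scale, which is per length, RPL8 (3664 RPKM), RPS18 (3503), RPL7 (3466), RPS2 (3241) and RPL4 (3203) were the highest, and 62 members were over 1000 RPKM. Only 3 were under 100 RPKM: RPL39L (25.5), the paralog of the exit-tunnel protein RPL39; RPS26 (74.2), a small-subunit protein at the mRNA exit channel; and RPS27L (91.9), a p53-inducible paralog of RPS27. RPS28 (348 RPKM) and RPL17 (430) came next. Within groups, the SD of log2(RPKM + 1) had a median of 0.052 over members, from 0.029 in RPL38 to 0.209 in RPS26, against 0.058 over the 1051 other genes at or above the level of RPS27L, the highest of those 3, most of which lie below the family's median level. RPS26 was thus the least reproducible member, and changes in it have wide intervals.

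**Figure D1:**
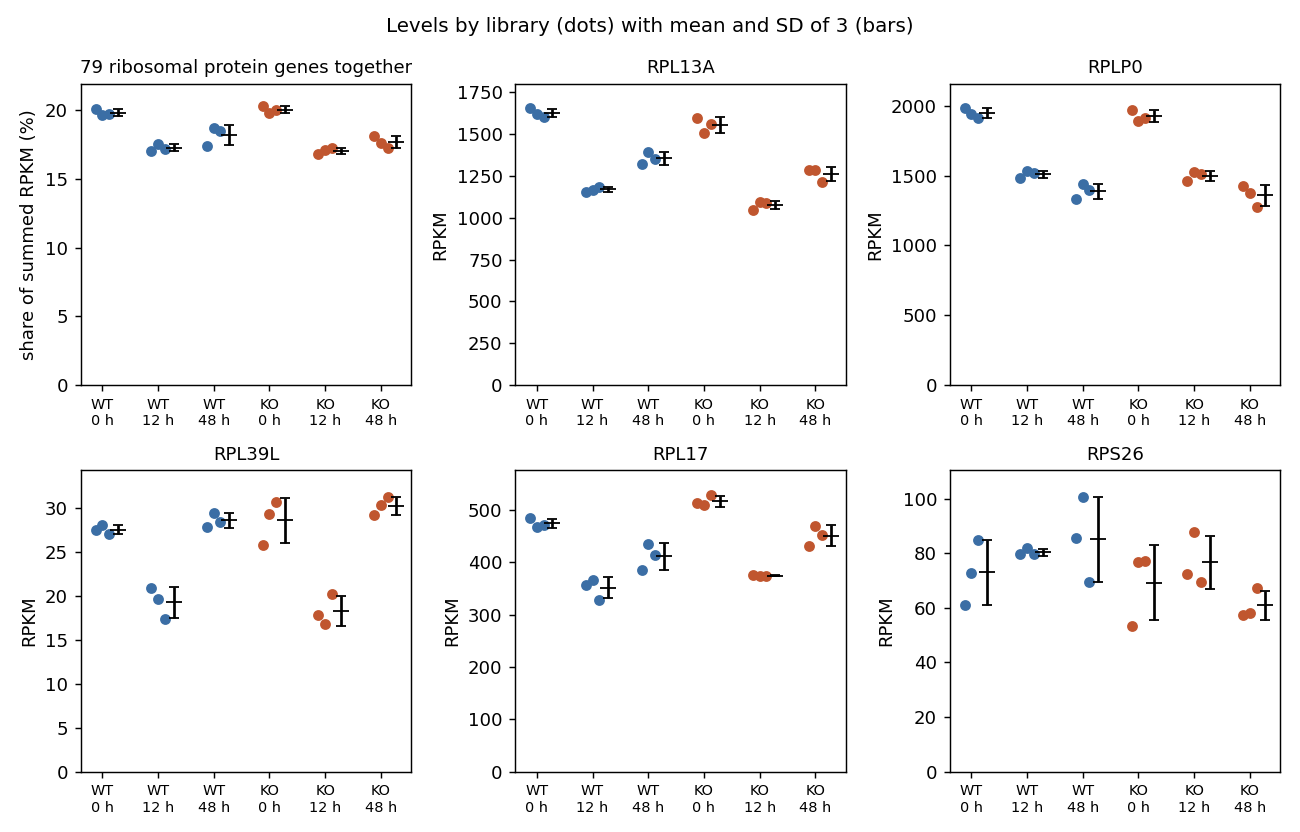
Share of summed RPKM taken by the 79 ribosomal protein genes (%) and RPKM of 5 members, for each library (dots; blue WT, orange KO), with the mean and SD of 3 replicates in black beside each group; axes start at 0. The joint share was 19.8% in untreated WT and 17.3% at 12 h, RPL13A and RPLP0 were lower in all treated libraries, RPL39L was back near 28.6 RPKM at 48 h in WT, and RPS26 varied widely within groups.

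After 12 h in interferon nearly the whole family was lower in both genotypes. Its share of all RPKM was 17.1, 17.5 and 17.2% in WT and 16.8, 17.1 and 17.2% in KO, below every untreated library. In limma fits of log2(RPKM + 1) over all 18 libraries, with Benjamini-Hochberg adjustment over all 13280 genes, 72 of 79 members fell in WT, where 29.8% of all tested genes were called lower, and 75 of 79 fell in KO, where 32.8% were. No member rose, and none had a positive estimate at an unadjusted p under 0.05. The median log2 change of the members was -0.24 in WT and -0.29 in KO, beside -0.09 and -0.10 over all tested genes, and both subunits moved alike (medians -0.25 for large and -0.24 for small in WT). All 3 treated libraries lay below all 3 untreated ones for 75 members in WT and 74 in KO, a separation seen in 35.2% and 36.8% of all tested genes. After median-of-ratios scaling of the libraries, which brings the median of all genes to about 0, 57 members in WT and 62 in KO fell (backgrounds 20.5% and 22.9%), with median changes of -0.15 and -0.18. Fewer ribosomal protein mRNAs per cell and more of other RNA cannot be told apart in these values.

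RPL13A, a large-subunit protein also known for leaving the ribosome to silence translation in interferon-gamma-treated myeloid cells, had the best supported fall. It stood at 1655, 1624 and 1606 RPKM in untreated WT and at 1156, 1168 and 1185 at 12 h, and at 1598, 1505 and 1563 against 1049, 1095 and 1090 in KO. The groups were far apart, with no overlap in either line. RPL13A fell by 28.1% in WT (log2 change -0.48, SE 0.032, adjusted p 9.23e-09) and changed by -30.7% in KO (-0.53, SE 0.032, adjusted p 2.28e-09).

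RPL39L fell most on the log2 scale, from a low level. Untreated WT libraries held 27.5, 28.1 and 27.1 RPKM and those at 12 h held 20.9, 19.6 and 17.4, which gave a log2 change of -0.49 (SE 0.074, adjusted p 5.96e-05). In KO the values were 25.8, 29.4 and 30.8 RPKM before and 17.8, 16.9 and 20.3 at 12 h, a log2 change of -0.62 (SE 0.074, adjusted p 5.23e-06). The treated libraries were below all untreated ones in both lines. RPL17, a protein at the mouth of the exit tunnel, changed by -26.0% in WT and -27.4% in KO, and RPL3, which reaches toward the peptidyl transferase centre, by -25.5% and -26.5%. RPL3 went from 2067, 2050 and 2007 RPKM in untreated WT to 1496, 1525 and 1538 at 12 h, and from 2043, 1955 and 2015 to 1420, 1520 and 1479 in KO.

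The members tied to p53 and to mTORC1 fell at 12 h like most of the family, but not all by the same amount. RPL5, of the 5S particle, went from 1488, 1445 and 1467 RPKM to 1092, 1158 and 1088 in WT and from 1564, 1545 and 1494 to 1148, 1142 and 1140 in KO, changes of -24.1% and -25.5%. RPL11, its partner, changed by -15.8% and -16.4%, and RPL23, another MDM2-binding member, by -22.7% and -25.5%. RPS6, the substrate of S6 kinase, changed by -20.8% in WT and -21.5% in KO, and RPS27A, made as a fusion with ubiquitin, by -17.4% and -21.9%. Of 11 members known as Diamond-Blackfan anaemia genes, 10 fell in each line, with medians of -0.25 and -0.27, beside 72 and 75 of all 79 members. RPL5 and RPL23 lay below the family median and RPL11 close to it. Relative to the family as a whole, as described below, RPL5 and RPL23 were called below at 12 h in both lines, and RPS6 in WT only.

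The P-stalk recruits elongation factors to the large subunit, and its 3 genes differed. RPLP0, the stalk base and a common reference transcript in PCR assays, stood at 1982, 1943 and 1911 RPKM in untreated WT and at 1484, 1532 and 1517 at 12 h. The corresponding KO values were 1973, 1889 and 1915 against 1458, 1526 and 1512, and the changes of RPLP0 were -22.3% and -22.2%. RPLP2 changed by -8.0% and -11.9%, called in both lines but in neither after median-of-ratios scaling, and not in WT without the first untreated or the third 12 h library (-0.11 and -0.10). RPLP1 was at -0.12 in WT (adjusted p 0.24) and at -0.19 in KO (adjusted p 0.0479), a call that most of the alternatives run lost; without the third untreated KO library it was at -0.09. Relative to the family as a whole, as described below, RPLP0 was below and RPLP2 above in both lines.

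Members that did not pass in either line at 12 h were RPL21, RPS15, RPS26 and RPS28. RPS15, a protein of the small-subunit head, stood at 494, 469 and 486 RPKM in untreated WT and at 480, 433 and 469 at 12 h, with overlapping ranges and a log2 change of -0.07 (95% interval -0.19 to 0.05). RPS26 held 61.2, 72.8 and 84.9 RPKM in untreated WT and 79.5, 81.8 and 79.7 at 12 h, and its interval ran from -0.17 to 0.47. RPS26 was the only member with a positive estimate at 12 h, 0.15 in WT and 0.16 in KO. RPL36, RPLP1 and RPS9 passed in KO only, and the tests of the genotype difference given below did not pass for them.

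**Figure D2:**
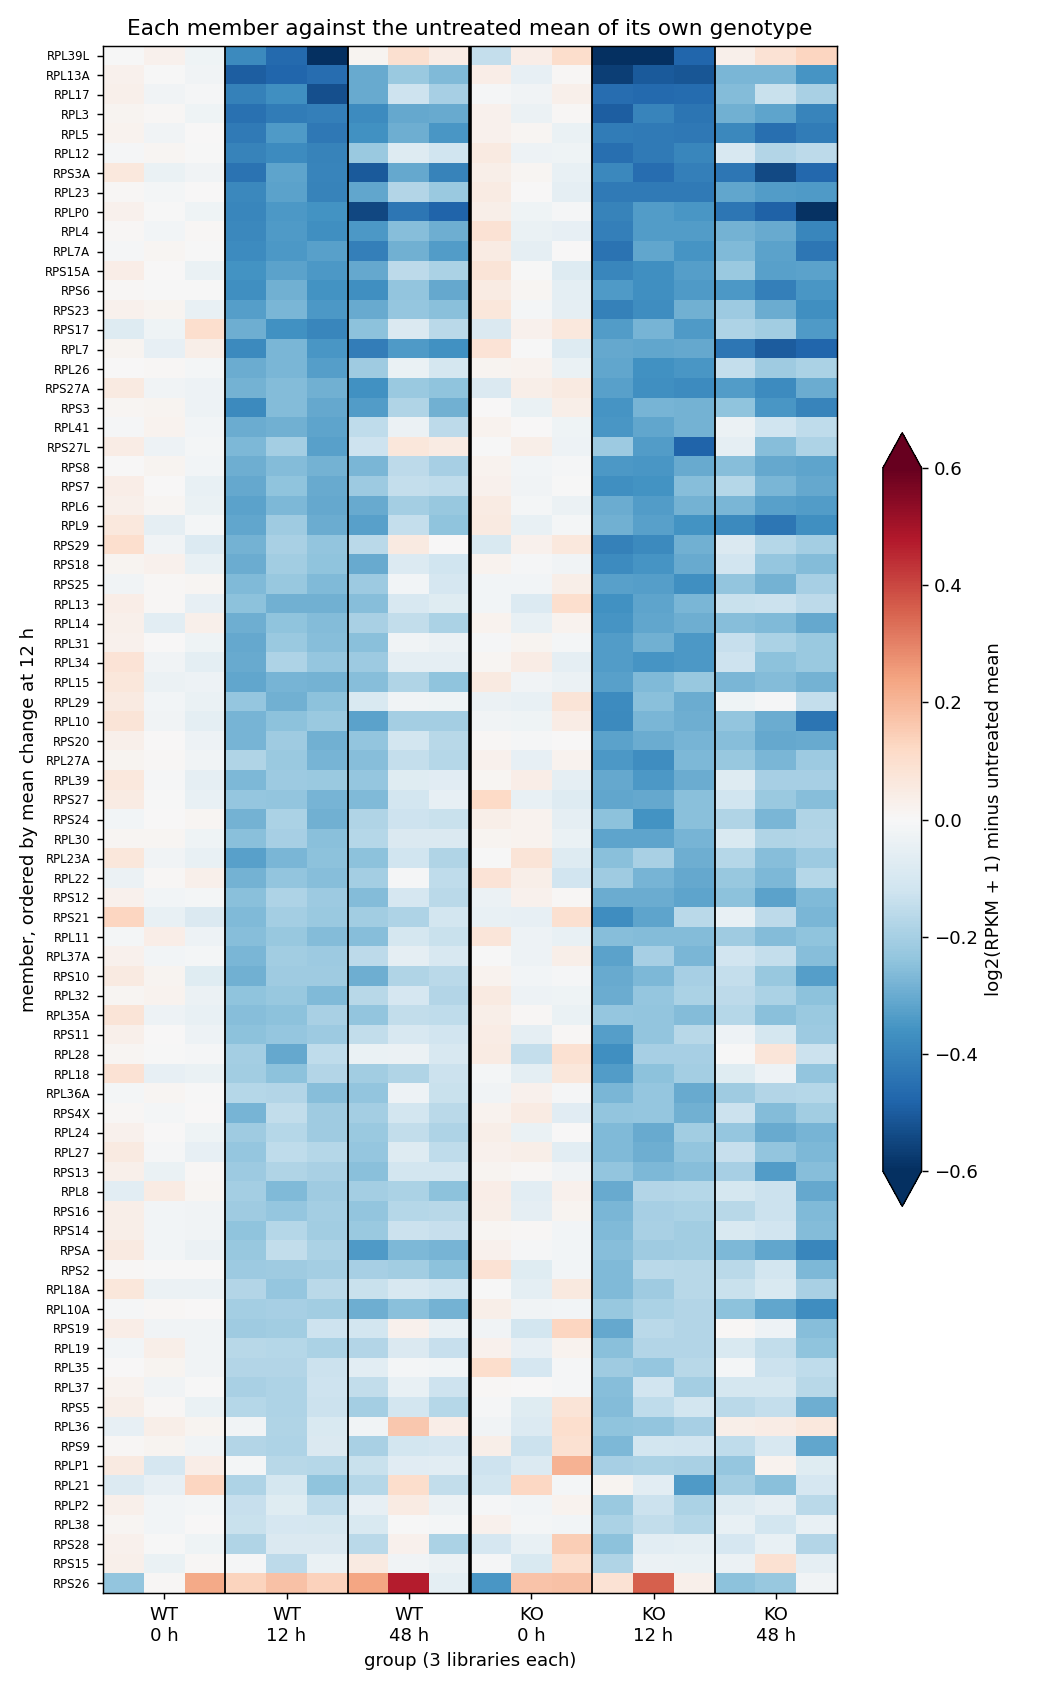
Log2(RPKM + 1) of each of the 79 members (rows, ordered by mean change at 12 h) in each of the 18 libraries (columns), minus the untreated mean of the same genotype; blue is lower and red is higher, with the scale limited to 0.6 either way. Most rows are blue in the 12 h libraries of both genotypes, 72 of them called in both; RPS15 and RPS26 at the bottom were called in neither, RPS15 being slightly below its untreated mean and RPS26 on average above it.

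After 48 h fewer members were called lower than at 12 h. The share was 17.4, 18.7 and 18.5% in WT and 18.1, 17.6 and 17.3% in KO. A total of 50 members fell in WT (6.3% of all tested genes called lower) and 58 in KO (7.42%), none rose, and median changes were -0.16 and -0.20 beside -0.00 and -0.01 over all tested genes. After median-of-ratios scaling the medians at 48 h were -0.15 and -0.18, as at 12 h. The same 48 members fell at 12 and at 48 h in both lines. The first 48 h WT library was the low one at 17.4%, which lies among the 12 h values; without it 35 members fell in WT at 48 h.

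The members with the largest falls at 48 h, named next, had also fallen at 12 h by more than the family medians of -0.24 (WT) and -0.29 (KO). At 12 h RPS3A was at -0.39 and -0.42, RPL5 at -0.40 and -0.42, and RPLP0 at -0.36 and -0.36. The largest single fall was in RPL39L at 12 h and in RPLP0 at 48 h, in both lines. RPLP0 was at 1333, 1439 and 1394 RPKM in WT and at 1424, 1375 and 1277 in KO, a change of -28.6% in WT (adjusted p 1.36e-07) and of -29.5% in KO (adjusted p 8.4e-08). RPS3A, a small-subunit protein near the mRNA exit channel, went from 2097, 1948 and 1973 RPKM in untreated WT to 1412, 1620 and 1516, and from 2123, 2088 and 2012 to 1535, 1426 and 1498 in KO. Its changes were -24.5% and -28.4%, and no treated library reached an untreated one. RPL7, which contacts the 5S rRNA region, changed by -22.7% and -27.7%, RPL7A by -21.2% and -21.0%, and RPL5 by -20.7% and -25.3%. RPS6 was also still lower, at -18.9% and -22.5%.

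At the other end, 19 members were lower at 48 h in neither line, among them RPL39L, RPS27L, RPL29, RPL36, RPL38, RPLP1, RPLP2, RPS15, RPS19 and RPS26. RPL39L held 27.9, 29.5 and 28.5 RPKM at 48 h in WT, overlapping the untreated range, with a log2 change of 0.05 (95% interval -0.10 to 0.21). In KO it held 29.3, 30.4 and 31.3 RPKM, with 0.08 (interval -0.07 to 0.24). RPS27L was at 101.7 RPKM on average in untreated WT and at 101.8 at 48 h, and at 98.3 and 87.7 in KO (log2 change -0.17, adjusted p 0.12). RPS19, the gene most often mutated in Diamond-Blackfan anaemia, was at -0.04 in WT (adjusted p 0.75) and -0.09 in KO (adjusted p 0.42).

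**Figure D3:**
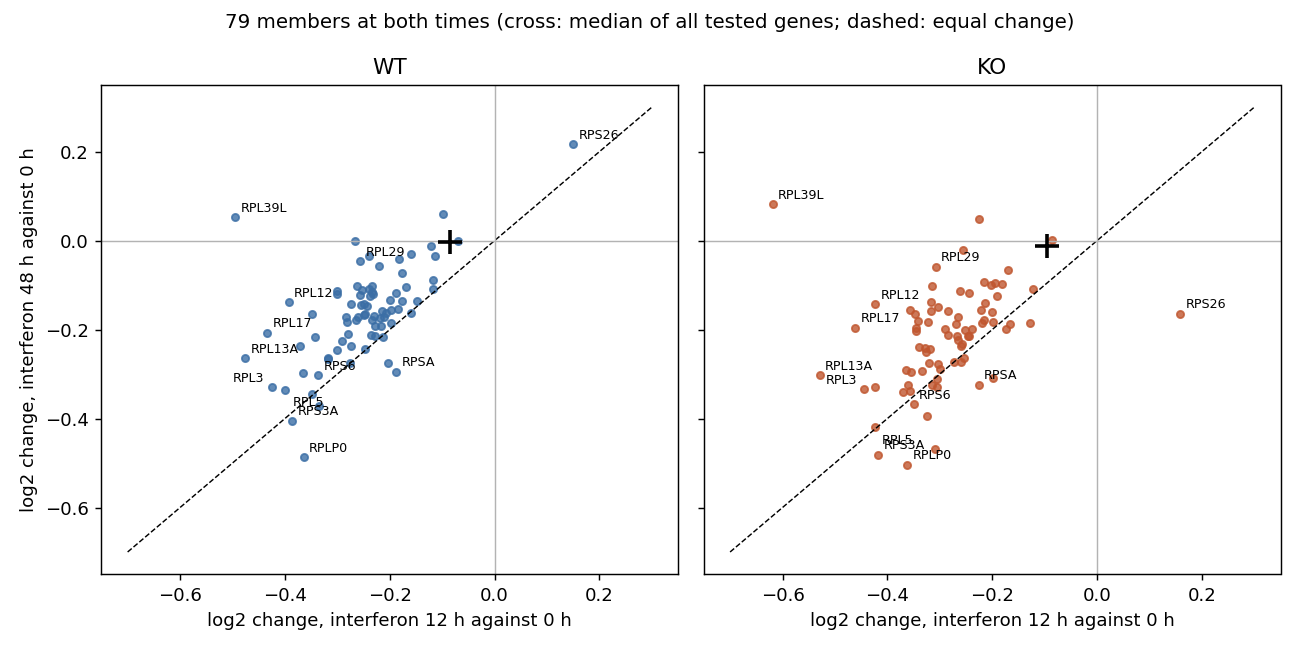
Log2 change of each member at 12 h (x axis) and at 48 h (y axis) against untreated cells of the same genotype, WT left and KO right; the 2 axes share the untreated libraries, the dashed line marks equal change and the cross the median of all tested genes. Most members lie above the dashed line, RPL39L furthest in height, while RPLP0 and RPSA lie below it.

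Between 12 and 48 h, both in interferon, the WT line had 27 members called higher and 2 called lower, where 24.6% and 11.3% of all tested genes were so called. The KO line had 22 members called higher and 4 called lower, beside 27.7% and 14.0% of all tested genes. The member medians were 0.07 in WT and 0.07 in KO, beside 0.07 and 0.08 over all tested genes. With median-of-ratios scaling, WT had 6 members higher and 4 lower (backgrounds 16.1% and 18.2%) and KO had 7 higher and 12 lower (19.1% and 21.1%), with medians of -0.02 and -0.03. The direction of the family between the 2 times therefore flips with the scaling. Changes of single members given next are from the fit without that scaling and include the common shift. Departures from the family over this interval are given further below. The WT count also moved with single libraries: 35 members rose without the first 48 h replicate, and 10 without the second. In KO 12 rose without the first 48 h replicate.

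RPL12, RPL13A, RPL17, RPL29 and RPL39L rose between 12 and 48 h in both lines with either scaling. RPL39L rose by 46.2% in WT (adjusted p 3.68e-05) and by 62.6% in KO (adjusted p 2.48e-06). RPL12, which forms the stalk base beside RPLP0, went from 2049, 2081 and 2052 RPKM at 12 h to 2319, 2566 and 2494 at 48 h in WT, and from 1910, 1952 and 1992 to 2447, 2319 and 2344 in KO. It rose by 19.3% and 21.4%, with no overlap between times. RPL17 rose by 17.0% and 20.2%, RPL29 by 15.7% and 18.9%, and RPL13A by 15.8% and 17.0%. RPL36 rose in both lines without the scaling, by 11.7% and 21.0%.

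RPLP0 and RPSA fell further from 12 to 48 h in both lines with either scaling, but these small falls depended on other choices. In WT neither was called with variances without a trend, or without the second or the third 12 h or the first 48 h library (RPLP0 -0.09 to -0.12, RPSA -0.09 to -0.11). In KO the call of RPSA was lost without the second or the third library of either time (-0.06 to -0.10), and fitting only the libraries compared lost RPLP0 in KO and RPSA in both lines. RPLP0 changed by -8.1% in WT (adjusted p 0.0214) and by -9.4% in KO (adjusted p 0.00764). RPSA, a small-subunit protein also known as the laminin receptor precursor, stood at 1964, 1874 and 1846 RPKM in untreated WT, at 1618, 1708 and 1663 at 12 h and at 1499, 1571 and 1563 at 48 h. The KO series was 1903, 1863 and 1851, then 1569, 1615 and 1618, then 1555, 1510 and 1426. These ranges followed each other downward in time without overlap in either line. RPL10A and RPL7 fell in KO (-7.5% and -10.4%), and in both lines after median-of-ratios scaling. RPLP0 and RPL12, neighbours on the stalk base, thus moved in opposite directions over this interval.

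Departures inside the family were tested after shifting each library by the mean log2 level of its members, which removes any common scaling. At 12 h 20 members departed in each line, 7 above and 13 below in WT, and 9 above and 11 below in KO. At 48 h 8 were above and 15 below in WT, and 12 above and 19 below in KO. The shares of all tested genes called on this scale were 48.5% and 53.5% at 12 h and 34.2% and 44.2% at 48 h, as other genes are not tied to the family. With so many genes called, the Benjamini-Hochberg cut is lenient for members. RPS26 passed in WT at 12 h with an unadjusted limma p of 0.0201 (adjusted p 0.0427). The shift also sets the mean change of the members to 0, so members on both sides follow from it. The members called in both lines at 12 h were, below, RPL39L, RPL13A, RPL17, RPL3, RPL5, RPL12, RPS3A, RPL23, RPL4, RPLP0 and RPL7A, and above, RPS26, RPS15, RPL38, RPLP2, RPL37 and RPL19. Relative to the family, RPL13A differed by -0.23 log2 units in the WT line and by -0.24 in the KO line, and RPL38 by 0.14 and 0.12. At 48 h RPLP0 was lowest, at -0.32 and -0.29, while RPL39L was above by 0.22 and 0.30 and RPL36 by 0.22 and 0.26. RPL13A was still below at 48 h by smaller amounts, -0.10 and -0.09. Between 12 and 48 h, relative to the family, RPL39L was at 0.46 in WT and 0.63 in KO and RPL12 at 0.17 and 0.21. RPLP0 was at -0.21 and -0.21 over this interval, and RPSA at -0.19 and -0.17. RPL39L was thus the lowest member relative to the family at 12 h and among the highest at 48 h.

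No member was called different between KO and WT at any time in these fits. In untreated cells the median difference, KO minus WT, was -0.01 (3 members at an unadjusted p under 0.05, smallest adjusted p 0.16), while 4.89% of all tested genes were called. At 12 h it was -0.04 (8 members unadjusted, smallest adjusted p 0.0535) with 3.62% of genes called, and at 48 h -0.05 (16 unadjusted, smallest adjusted p 0.0887) with 4.19% called. Over all tested genes these medians were 0.02, 0.01 and 0.01. The 95% interval of a member reached a median of 0.089 log2 units either side of its estimate, and for all 79 members at all 3 times the interval excluded a 2-fold difference. Without the first 48 h WT library, 2 members were called at 12 h and 6 at 48 h. The share of all tested genes called in that fit is not given here. Differences smaller than these intervals were not detectable with 3 libraries a group.

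RPL13A had the smallest adjusted p at 12 and 48 h. It was lower in each KO library than in each WT library of the same time, as was RPL10A. The share of all tested genes separated so at all 3 times is not given here. At 12 h all KO libraries lay below all WT libraries for 24 members and above for 2, beside 1297 and 1490 of 13280 tested genes. At 48 h these were 11 and 0 members, beside 1234 and 1452 genes, and at 0 h 7 and 6, beside 1175 and 1956. Estimates were below 0 for 41, 62 and 71 of 79 members at 0, 12 and 48 h. Members share the shift of each library, so these are not 79 separate observations. Relative to the family, whose mean is set to 0, 38, 39 and 32 members were below 0. The share of all tested genes with an estimate below 0 is not given here. Differences of RPL13A were -0.07 at 0 h (adjusted p 0.29), -0.12 at 12 h (0.0535) and -0.10 at 48 h (0.0887). After median-of-ratios scaling RPL13A passed at 12 h (adjusted p 0.0346) and 48 h (adjusted p 0.049), as the only member called. RPL17 lay on the other side, at 0.12, 0.10 and 0.14, and relative to the family it was higher in KO at 48 h (0.19, adjusted p 0.0125; 5.33% of all tested genes called on that scale). Its level is uncertain for the reason given with the read-through row below. RPL13A and RPL17 are set apart here after their values were seen.

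The response to interferon was tested for a difference between genotypes as an interaction. No member passed at 12 h (0 at an unadjusted p under 0.05) or 48 h (4 unadjusted), where 0.0753% and 0.0828% of all tested genes did. The member medians of the interaction were -0.03 and -0.05, and intervals reached a median of 0.126 either side. For RPL36, RPLP1 and RPS9, called lower at 12 h in KO only, this means that no genotype difference was shown. For RPL13A the interaction at 12 h was -0.05 (95% interval -0.15 to 0.04), and for RPLP0 0.00 (-0.11 to 0.12).

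Other genes of the translation machinery were followed beside the family, in lists chosen with earlier results of these data known. Of 18 other TOP mRNA genes, 15 fell in each line at 12 h, with medians of -0.32 and -0.31, and 12 in WT and 14 in KO fell at 48 h; of all tested genes 29.8% and 32.8% were lower at 12 h and 6.3% and 7.42% at 48 h. EIF4B, an initiation factor, changed by -0.73 and -0.66 on the log2 scale at 12 h, and NAP1L1, a histone chaperone, by -0.55 and -0.53. Start windows of 10 of the 13 such genes with a RefSeq entry (76.9%) held the pyrimidine run. Of 7 elongation factor genes 5 fell in each line at 12 h, led by EEF1A1 (-0.47 in WT, -0.50 in KO) and EEF2 (-0.33 and -0.36), and the 1 that rose was EIF5A (0.12 and 0.10). Of 7 ribosomal proteins with names outside the rule, 1 was lower in WT and 4 in KO at 12 h, with medians of -0.03 and -0.12; after median-of-ratios scaling each line had 1 higher and 1 lower, with medians of 0.06 and -0.01. RACK1, a scaffold on the small subunit, was the one lower in WT (-0.25, and -0.23 in KO). The other TOP mRNA and elongation factor genes were mostly lower, as the 79 genes were, while this list of 7 had no clear direction.

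Genes that build ribosomes went the other way at 12 h. Of 44 tested ribosome assembly factors, WT had 29 higher and 2 lower (15.1% of all tested genes were higher) and KO had 29 higher and 3 lower (16.0%), with medians of 0.21 and 0.21. NOC4L, of the small-subunit pathway, changed by 0.56 (WT) and 0.45 (KO) log2 units, NOP2, an rRNA methyltransferase, by 0.43 and 0.47, and LSG1, a GTPase of late large-subunit maturation, by 0.43 and 0.40. From 12 to 48 h, 18 of the assembly factors fell in WT and 26 in KO, beside 11.3% and 14.0% of all tested genes. Of 25 initiation factors outside the TOP list, 13 were higher and 6 lower in WT at 12 h and 12 and 6 in KO, but after median-of-ratios scaling 15 were higher and 0 lower in WT and 16 and 1 in KO. EIF5 rose by 0.55 and 0.46. Of 15 genes of RNA polymerase I and its factors, each line had 3 higher, with 2 lower in WT and 3 lower in KO; with that scaling 6 were higher and 1 lower in WT and 8 and 2 in KO. Start windows of 6 of 40 assembly factors (15.0%) held the pyrimidine run. After median-of-ratios scaling 36 assembly factors rose in WT and 34 in KO, with medians of 0.3 and 0.318 beside -0.003 and -0.001 over all tested genes. The direction of this list and that of the ribosomal proteins thus stayed opposite. For this list and the 2 before it, the share of all tested genes called higher with that scaling is not given here.

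**Figure D4:**
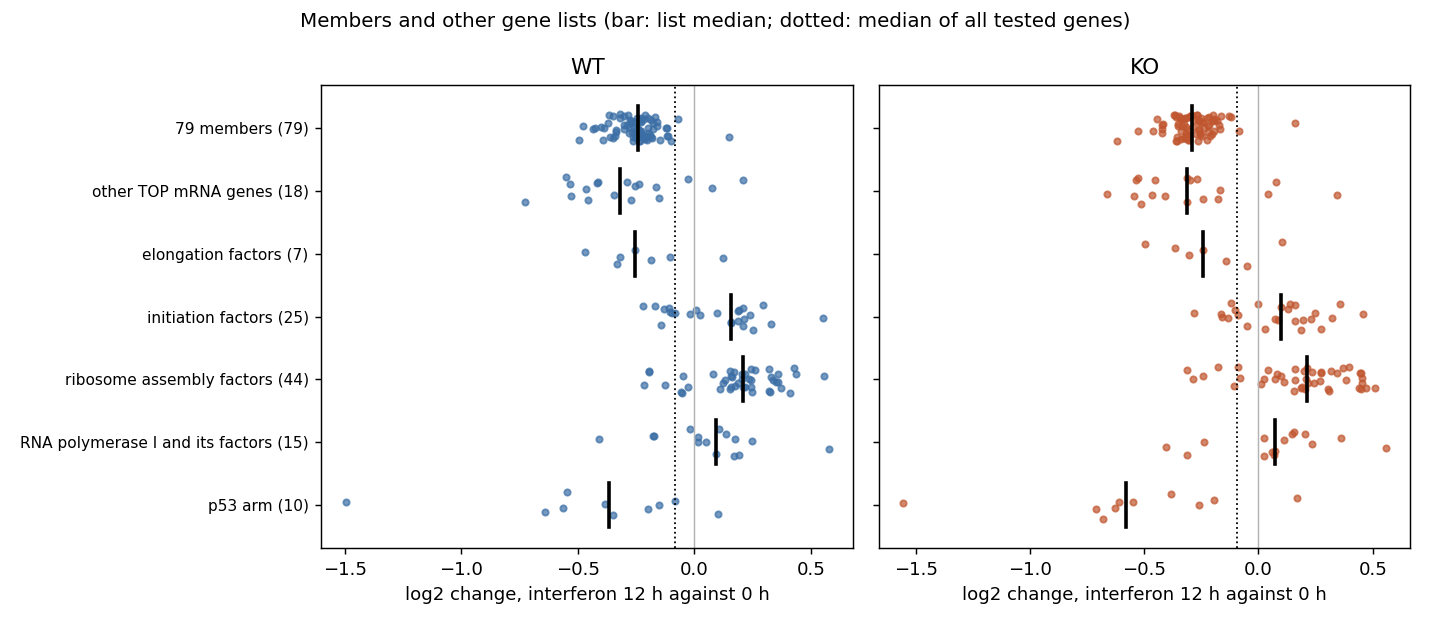
Log2 change at 12 h of interferon against untreated cells (x axis) for the 79 members and 6 other gene lists (rows, number tested in brackets), WT left and KO right; each dot is a gene, black bars are list medians and the dotted line is the median of all tested genes. Ribosomal protein, other TOP mRNA and elongation factor genes lie mostly left of the dotted line, and assembly factors, with a median of 0.21 in both lines, to its right.

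Genes of the p53 arm of the ribosome stress response and regulators of growth were followed last. ZMAT3, a p53-induced RNA-binding protein, had the largest fall of its list at 12 h (log2 change -1.497 in WT, -1.56 in KO), and MDM2 was at -0.64 and -0.71. Of the 10 genes of this list 7 fell in WT and 8 in KO (1 rose in KO), beside 29.8% and 32.8% of all tested genes called lower. From 12 to 48 h 9 of the 10 rose in each line, beside 24.6% and 27.7% of all tested genes. Of 22 regulators of TOP mRNAs and growth, WT had 4 higher and 6 lower at 12 h and KO had 3 higher and 5 lower. Of all tested genes 15.1% were higher and 29.8% lower in WT, and 16.0% and 32.8% in KO. After median-of-ratios scaling the balance turned, to 7 higher and 2 lower in WT and 12 and 1 in KO. The list medians were then 0.106 and 0.146, beside -0.003 and -0.001 over all tested genes, whose share called higher is not given here. MAX, the partner of MYC, rose by 0.43 and 0.45, and EIF4EBP1, an mTORC1 substrate that restrains translation, was lower (-0.27 and -0.38).

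Among members, the pyrimidine run did not separate larger from smaller falls. At 12 h in WT the 44 members with the run had a median of -0.23 (39 called lower) and the 19 without it -0.27 (17 called lower). In KO the medians were -0.28 and -0.31. The 48 h medians, with and without the run, were -0.15 and -0.16 (WT) and -0.20 and -0.20 (KO). RPL3, RPL17 and RPL4, among the largest falls at 12 h, lack the run in their windows, and RPL13A, RPLP0 and RPS3A have it.

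Length of the coding sequence went with the change at 48 h. It was read from GENCODE 29 for 71 members, and is given as a description, since the genes share libraries and their levels are scaled by length. Spearman's rho between coding length and log2 change was -0.76 in WT and -0.61 in KO at 48 h, and -0.31 and -0.17 at 12 h. Over 755 other genes at or above the level of RPS27L the values were 0.09 and 0.19 at 48 h and 0.24 and 0.29 at 12 h, thus of the opposite sign. The 24 members with the shortest coding sequences (75 to 396 bases) had medians of -0.11 in WT and -0.16 in KO at 48 h, the 24 in the middle (405 to 576 bases) -0.17 and -0.20, and the 23 longest (582 to 1281 bases) -0.26 and -0.31. RPLP0, RPL5, RPL3, RPL4 and RPS3A are among the longest, and RPL39L, RPL36 and RPLP1 among the shortest. The corresponding rho with mean level was -0.30 and -0.18 at 48 h.

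**Figure D5:**
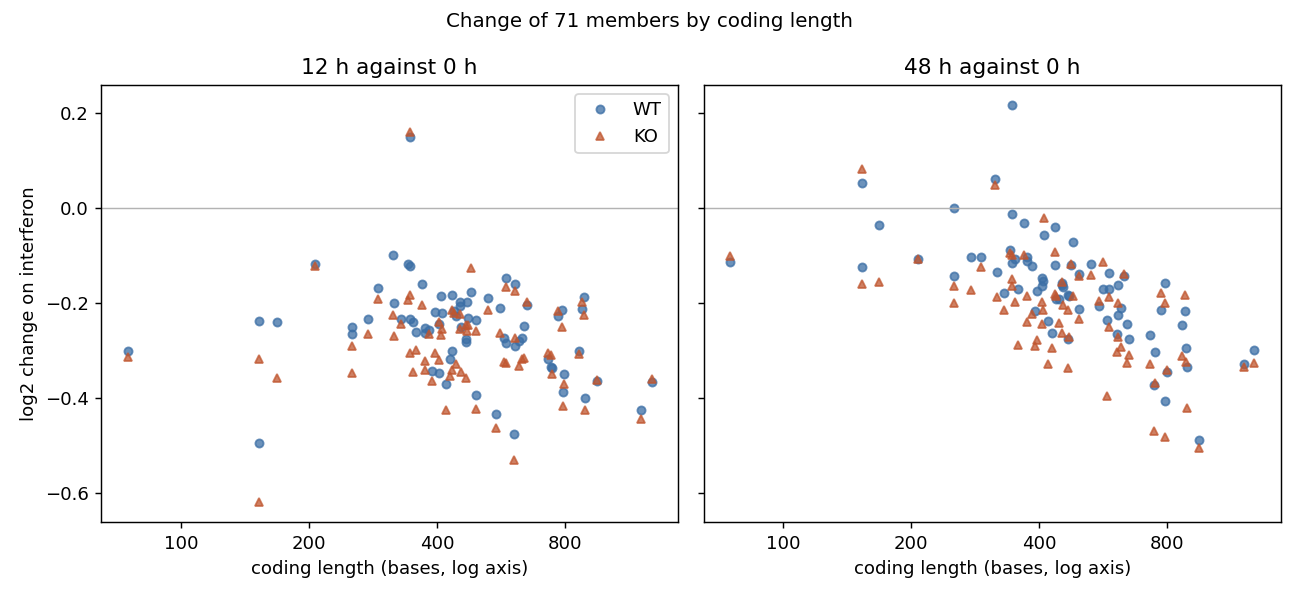
Log2 change on interferon (y axis) against coding length in bases (x axis, log scale) for the 71 members with a GENCODE 29 length, at 12 h (left) and 48 h (right); circles are WT and triangles KO. At 48 h the 24 shortest members had medians of -0.11 in WT and -0.16 in KO, and RPLP0, among the longest, is the lowest point at -0.49 and -0.50.

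Near-identical copies limit the levels, and in part the calls, of single members. The table also holds 215 named pseudogene rows of ribosomal protein genes, 8 of them at 100 RPKM or more, which took 1.08 to 1.45% of all RPKM. Relative to the member they copy, these rows reached 179% for RPL23A, 158% for RPL41, 90.5% for RPL21, 88.3% for RPS28, 51.2% for RPL39, 31.9% for RPL22 and 18.3% for RPL36A, and the read-through row RPL17-C18orf32 reached 388% of RPL17. Reads of these pairs may have been divided by the counting, so their levels are uncertain. RPL17-C18orf32 had log2 changes of -0.36 (WT) and -0.40 (KO) at 12 h, beside -0.43 and -0.46 for RPL17, and RPL41P1 was at -0.26 and -0.30 beside RPL41. Without these 8 members, 66 of the remaining genes fell in WT at 12 h and 69 in KO, an alternative chosen after seeing the data. RPL21P75 was called lower in both lines at 12 h (-0.40 and -0.56), while RPL21 (-0.18 and -0.13) was called in neither. RPS28P7, like RPS28, did not pass at 12 h (-0.22 and -0.20).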

How the data were processed

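RNA from 18 NIKS cultures was measured by mRNA sequencing. The authors deposited RPKM values with 2 decimals. The submitters' processing notes name cutadapt, STAR 2.6.1, RSEM 1.3.0, limma 3.50.3 and hg19; annotation, gene filter and library scaling are not given in the sources used here. Ensembl row IDs were matched to symbols through the supplied name table (14576 of 16472 named). For each comparison, limma 3.58.1 (R 4.3.3) was fitted to log2(RPKM + 1) over all 18 libraries with a mean for each of the 6 groups and a variance trend, on genes with an RPKM of 1 or above in 3 or more libraries. P-values were adjusted over all 13280 genes (Benjamini-Hochberg, threshold 0.05). Fold changes are on the log2(RPKM + 1) scale. The fit was tested on simulated data. A second fit shifted each library by the mean log2 level of the members. Whole reads could not be recovered, so no count test was run, and precision rests on 3 replicates a group.

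The members and lists were chosen with earlier results of these data known. Members named were RPLP0, RPLP1, RPLP2, RPSA, RPL5, RPL11, RPS6, RPL13A, RPS27A and those ending in L, the 5 highest and 5 lowest by level, the 4 largest called rises and falls per comparison, the 5 largest departures from the family in each direction at 12 h, and up to 3 called genes of largest change per other list. Other members, such as RPL23, RPL29 and RPS19, were named for a role or a count after their values were seen. Alternatives changed the pseudocount, filter, scaling, variance trend, libraries fitted, replicates left out and a replicate block. Sequences came from RefSeq (GRCh38.p14; 63 of 79 members) and coding lengths from GENCODE 29.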

Additional observations from a re-analysis of the deposited data

How the results depend on the processing

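At 12 h the median of the members was below 0 under each alternative run and the counts lower stayed within 1.5 times the reported ones, but medians shrank to -0.147 in WT and -0.182 in KO with median-of-ratios scaling and to -0.181 and -0.228 when each library was rescaled to a common sum (TPM). At 48 h that rescaling gave 32 members lower in WT and medians of -0.102 in WT and -0.151 in KO. From 12 to 48 h, median-of-ratios scaling left 6 members higher and 4 lower (WT), or 7 and 12 (KO), with medians of -0.018 and -0.027. Fitting only the libraries compared gave 14 higher and 1 lower in WT and 2 lower in KO, and variances without a trend gave 16 higher and 0 lower in WT. Leaving out 1 replicate at a time gave 10 to 35 higher and 0 to 3 lower in WT (lowest without the second and highest without the first 48 h WT replicate), and 12 to 25 higher and 3 to 4 lower in KO over the same interval, the lowest without its first 48 h replicate. It gave 0 to 2 members called between genotypes at 12 h and 0 to 6 at 48 h, both highest counts without the first 48 h WT replicate. Shares of all tested genes called in these reduced fits are not given here. Between genotypes 1 member (RPL13A) passed at 12 h and 1 at 48 h with median-of-ratios scaling. The cause of these shifts was not tested. No shared deviation of same-numbered libraries was seen: they correlated at -0.009 on average (45 pairs), and 2 of 18 libraries correlated best with their own number. These values cannot tell whether same-numbered cultures were grown or processed together. With the replicate block, 71 members in WT and 74 in KO fell at 12 h, 44 and 57 at 48 h, and from 12 to 48 h 18 rose in WT and 19 in KO. Of 67 named member results, none changed sign, and 42 of 1742 values lost their call. Many of these results were named for a large called change in the same data, so such stability was partly built in. Leaving out a library outside a comparison also cannot change its estimate. The main limits are 3 libraries a group, 1 line a genotype, no untreated cells at 12 or 48 h, an unstated library scaling, and reads shared with pseudogene rows.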
